A study of Mus musculus with 24 samples.

Results

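Sin3a conditional knockout (CKO) lungs were compared between 2 ages, the day of birth (postnatal day 0, P0) and embryonic day 16 (E16), by RNA sequencing of whole lungs. The groups were taken from the sample titles, which name 4 P0 CKO and 4 E16 CKO libraries as biological replicates, 8 of the 24 libraries of the series. CKO lungs of both ages carried the Tbx4rtta and tetocre transgenes and 2 floxed Sin3a alleles (Sin3a F/F). The control lungs of the same ages, 4 libraries each, carried both transgenes and a single floxed allele (Sin3a F/+). All dams were fed doxycycline from embryonic day 12, so Cre could be induced in controls as well. Tbx4-rtTA is active in lung mesenchyme. Whole-lung RNA also comes from epithelium, endothelium and blood cells, and which cells had Cre cannot be read from these data. The study's stated comparisons are between genotypes at each age, and the change between ages within CKO lungs is what follows from its sampling.

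Sin3a is the scaffold of a corepressor complex that brings the histone deacetylases HDAC1 and HDAC2 to promoters, through DNA-binding repressors that include E2F-linked and MAD family proteins. The fetal lung leaves its branching stage around the earlier of these ages. Its distal tips then widen into sacs lined by flat alveolar type 1 cells, which exchange gas, and cuboidal alveolar type 2 cells, which make surfactant, while the mesenchyme between them thins and is filled with capillaries. At birth the epithelium turns from secreting to absorbing liquid, and the lung meets air, microbes and a surge of glucocorticoid hormone.

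Levels are CPM, a gene's share of a library's counts on the usual counts-per-million scale, with TMM scaling between libraries. Log2 fold changes are P0 CKO over E16 CKO ± SE, and a call is an adjusted p under 0.05 in edgeR's quasi-likelihood F test, with p adjusted by Benjamini-Hochberg over all genes tested. Library totals ran from 27.02 to 36.35 M counts over the 16 libraries used. The labels do not say whether lungs came from different litters, and p measures only the spread between these samples. A number opens each library's label without its meaning being given. All 4 P0 CKO libraries have different ones, and E16 CKO replicates 2 and 4 share one, so the number is tied to age and could not enter the comparison of ages as a block. Without E16 CKO replicate 2 or 4 the count of called genes was 4506 or 4532, against 5942 with all 8 libraries. Leaving out 1 of the other CKO libraries gave 4853 (E16 CKO replicate 3) to 6413 (P0 CKO replicate 1). In whole-lung RNA, fewer cells of a type and less RNA per cell cannot be told apart.

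P0 CKO replicate 1 held RNA of thymus genes. The summed level of 20 thymus markers was 2449, 65, 71.8 and 61.4 CPM in the P0 CKO lungs, against 73.7, 79.95, 99.5 and 87.9 CPM in the E16 CKO lungs, and no other CKO library reached 100 CPM. P0 CKO replicate 3 stood apart in the same way for skeletal muscle, with 57.3, 34.4, 1245 and 33 CPM in P0 CKO lungs and 7.18 to 38 CPM in E16 CKO lungs over 11 markers. Its 15 cartilage markers summed to 399 CPM and its 7 adipocyte markers to 39.7 CPM, against at most 123 and 2.75 CPM in the other 7 CKO libraries. Cardiac muscle markers were raised in several libraries, at 982, 417, 1026 and 801 CPM in P0 CKO and 514, 154, 99.4 and 167 CPM in E16 CKO lungs. The summed red cell markers ranged from 4296 to 24505 CPM at P0 and from 6333 to 16339 CPM at E16, lowest in P0 CKO replicate 3. By Xist above 100 CPM, 2 of the 4 P0 CKO lungs (replicates 2 and 4) and all 4 E16 CKO lungs were female. Counts of called genes are therefore given also without P0 CKO replicate 1 wherever they differ from those with all 8 libraries, and other CKO libraries are named where leaving one out moved a count of 3 or more by over 1.5 times. Counts of 1 or 2 often moved when another library was left out. The part of these differences between libraries in the results was not tested beyond that.

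**Figure D1:**
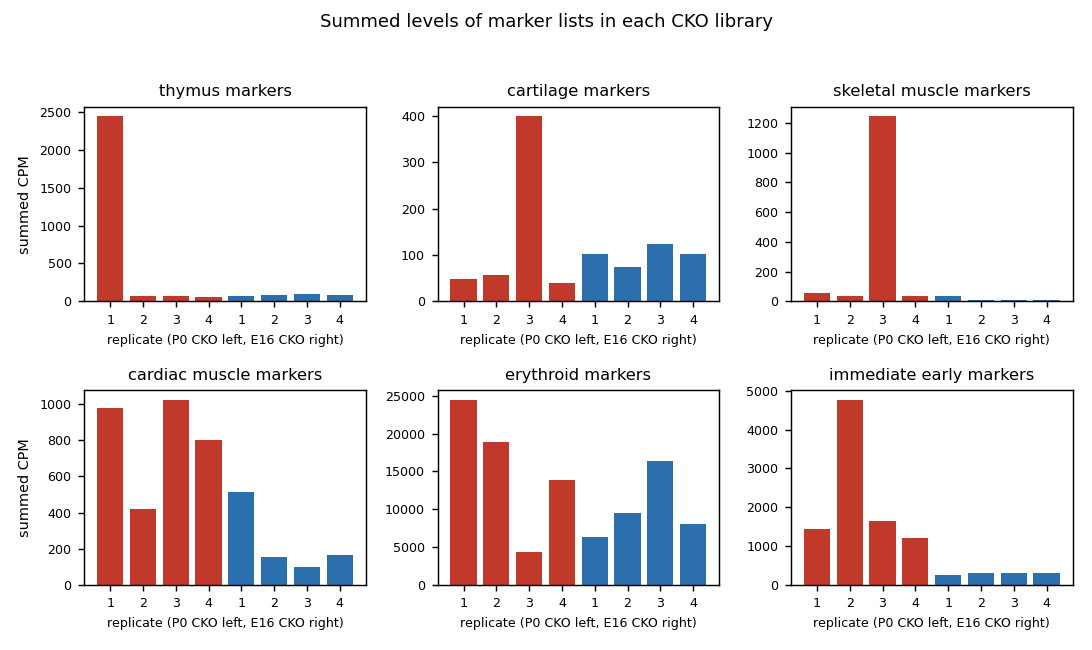
Summed CPM of 6 marker lists (vertical axes, each with its own range) in each P0 CKO library (red bars, left) and E16 CKO library (blue bars, right), by replicate number. The thymus sum reached 2449 CPM in P0 CKO replicate 1, the skeletal muscle sum 1245 CPM in P0 CKO replicate 3, and the immediate early sum 4769.9 CPM in P0 CKO replicate 2.

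Sin3a itself (ENSMUSG00000042557, mm10 chromosome 9, 57072040 to 57128366) stood at 110.3, 112, 96.6 and 85.8 CPM in P0 CKO lungs, against 136, 135, 105 and 146 CPM in E16 CKO lungs. The ranges overlapped, and the log2 fold change of -0.35 ± 0.15 did not pass the test (edgeR adjusted p = 0.0845), though it passed in 3 of 19 alternatives. In control lungs the log2 fold change was -0.45 ± 0.11 (edgeR adjusted p = 0.00854). A call in controls alone does not show that the changes differ, and no gene passed the edgeR test of that difference over all 16 libraries, given below. Its paralog Sin3b stood at 143, 88.9, 105 and 99 CPM in P0 CKO and 83.7, 102, 97.3 and 84.5 CPM in E16 CKO lungs (log2 fold change 0.26 ± 0.16, edgeR adjusted p = 0.249). Counts here cover the whole gene, including undeleted exons, and all cells of the lung, including those with no Cre, so these values do not check the genotype.

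Between E16 and birth the CKO lungs gained the transcripts of gas-exchange epithelium, surfactant, sodium and water transport, capillaries and resident and circulating immune cells, and lost those of DNA replication, mitosis and fetal growth. Of 16914 genes tested, 3067 were higher at P0 (18.1%) and 2875 were lower (17%). These shares are the background for the CKO counts given below per gene list. Without P0 CKO replicate 1 the counts were 3154 higher and 3259 lower of 17262 tested. Of the genes called with all 8 libraries, 90% of the higher and 92.1% of the lower ones were called in the same direction without it, and none in the opposite direction. Of the genes called, 2034 were at least 2-fold and 370 at least 8-fold higher, against 1261 and 40 lower. The 4 P0 CKO levels lay above all 4 E16 CKO levels for 2844 genes (16.8%) and below them for 3280 (19.4%). The median log2 fold change of all genes tested was 0.01.

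**Figure D2:**
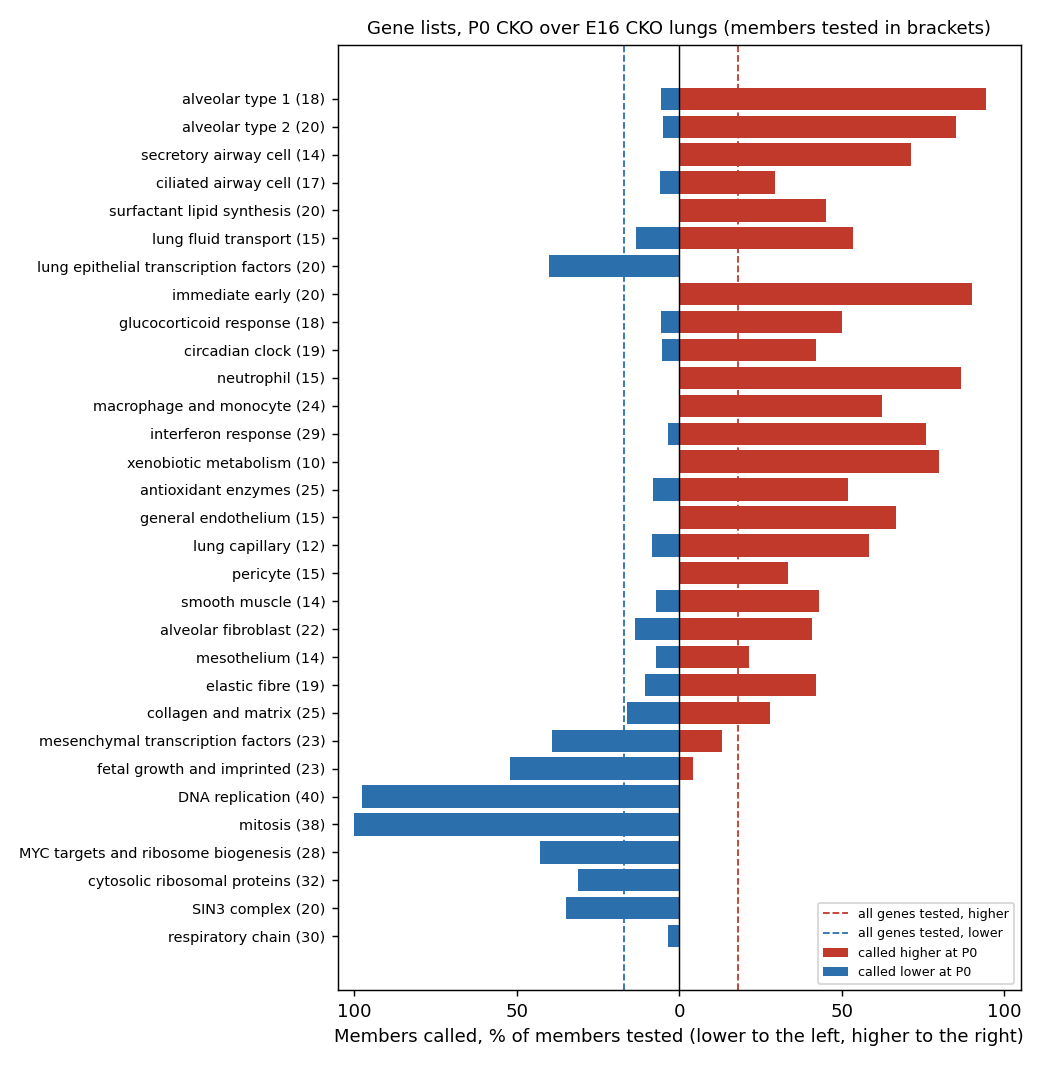
Share of the tested members of each gene list (horizontal axis, %) called higher at P0 (red, to the right) or lower (blue, to the left) in P0 CKO over E16 CKO lungs, with the number tested in brackets. Dashed lines mark the shares of all genes tested, 18.1% higher and 17% lower, and the mitosis and DNA replication lists lie at the far left while the alveolar and immediate early lists lie at the far right.

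Alveolar type 2 markers were higher at birth. Of 20 tested, 17 rose and 1 fell, against 18.1% and 17% of all genes, with a median log2 fold change of 2.16, and without P0 CKO replicate 1 the counts were 18 and 1. Sftpd (surfactant protein D, ENSMUSG00000021795, mm10 chromosome 14, 41172214 to 41185149), a collectin that binds microbes in the airspace, stood at 433, 285, 551 and 521 CPM in P0 CKO lungs, against 3.09, 11.4, 3.74 and 6.57 CPM in E16 CKO lungs. Every P0 lung lay far above every E16 lung, and the log2 fold change was 6.18 ± 0.47 (edgeR adjusted p = 3.82e-05). Chil1 (ENSMUSG00000064246, mm10 chromosome 1, 134182176 to 134190181), a chitinase-like protein without chitinase activity, stood at 119, 80.4, 122 and 123 CPM at P0 and 0.932, 1.84, 1.08 and 0.786 CPM at E16 in CKO lungs, again with no overlap (log2 fold change 6.58 ± 0.31, edgeR adjusted p = 9.53e-06). The collectin Sftpa1 reached 615, 1248, 1013 and 1359 CPM in P0 CKO lungs, against 65.1, 141, 66.5 and 98.8 CPM in E16 CKO lungs (log2 fold change 3.52 ± 0.33, edgeR adjusted p = 9.18e-05). The calcium-binding protein gene S100g and the lysozyme gene Lyz2, which macrophages also express, rose by log2 5.78 ± 0.37 and 3.79 ± 0.34. The hydrophobic surfactant proteins, whose genes were chosen after their values were seen, also rose, Sftpb by log2 2.17 ± 0.24 and Sftpc by log2 1.56 ± 0.21. Sftpc ranged over 7338 to 9379 CPM in P0 CKO lungs and was already at 1923 to 3696 CPM in E16 CKO lungs. The member that fell was Egfl6, a secreted matrix protein gene also chosen after its values were seen (log2 fold change -0.86 ± 0.23).

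Of 20 genes that supply surfactant lipid 9 rose and none fell, at a median log2 fold change of 0.57. Without P0 CKO replicate 1, 12 rose. The sterol sensor partner Insig1 (log2 1.04 ± 0.14), the fatty acid carrier Fabp5 (log2 1.52 ± 0.23) and the elongase Elovl1 (log2 1.41 ± 0.21) rose as well. Scd1, which desaturates fatty acids and was chosen after its values were seen, had 165, 1117, 136 and 446 CPM in P0 CKO lungs, against 12.4, 25.6, 9.26 and 14.4 CPM in E16 CKO lungs. Replicate 2 was the highest at P0, and every P0 lung lay above every E16 lung. Fasn, the fatty acid synthase, chosen likewise, had a log2 fold change of 0.48 ± 0.20 and did not pass (edgeR adjusted p = 0.0901).

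All 18 alveolar type 1 markers changed, 17 of them upward, at a median log2 fold change of 1.62, and the same counts were reached without P0 CKO replicate 1. Aqp5 (ENSMUSG00000044217, mm10 chromosome 15, 99590782 to 99594829), the water channel of the flat cell's apical face, stood at 189, 113, 135 and 181 CPM in P0 CKO lungs and 0.899, 4.72, 1.5 and 2.04 CPM in E16 CKO lungs. The lowest P0 lung was thus far above the highest E16 lung (log2 fold change 6.07 ± 0.49, edgeR adjusted p = 4.95e-05). Spock2, an extracellular proteoglycan, had 304, 213, 219.9 and 327 CPM at P0 and 11.9, 24.7, 13.3 and 16.9 CPM at E16 (log2 fold change 4.00 ± 0.27, edgeR adjusted p = 2.19e-05). Col4a3, a chain of the basement membrane collagen laid down by type 1 cells, rose by log2 3.10 ± 0.29, and the scaffold protein gene Rtkn2 by log2 3.04 ± 0.22. Gprc5a, a retinoic-acid-induced receptor gene, rose by log2 2.30 ± 0.20. The exception was Igfbp2, an insulin-like growth factor binding protein, at 12.7, 6.43, 9.93 and 19.6 CPM in P0 CKO lungs and 29.2, 27.1, 40.3 and 39.4 CPM in E16 CKO lungs (log2 fold change -1.47 ± 0.31, edgeR adjusted p = 0.00531).

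Transcription factors of the lung epithelium moved the other way, with 8 of 20 lower and none higher (1 higher and 8 lower without P0 CKO replicate 1). Sox9 (ENSMUSG00000000567, mm10 chromosome 11, 112782224 to 112787760), which marks the distal tip progenitors of the branching lung, stood at 6.08, 3.76, 5.68 and 3.41 CPM in P0 CKO lungs, against 16.1, 20.2, 28 and 28.6 CPM in E16 CKO lungs. No libraries overlapped, and the log2 fold change was -2.28 ± 0.27 (edgeR adjusted p = 0.000278). Etv5, a target of FGF signalling in the same tips, Mycn, which keeps them dividing, and the forkhead factor Foxp2 fell, with log2 fold changes of -1.15 ± 0.22, -1.22 ± 0.27 and -2.25 ± 0.36. Foxp2 was lowest in P0 CKO replicate 1, at 11.1, 49, 31.8 and 27.1 CPM in P0 CKO lungs and 165, 136, 125 and 144 CPM in E16 CKO lungs. Without P0 CKO replicates 1 and 3 the count of lower factors was 5.

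**Figure D3:**
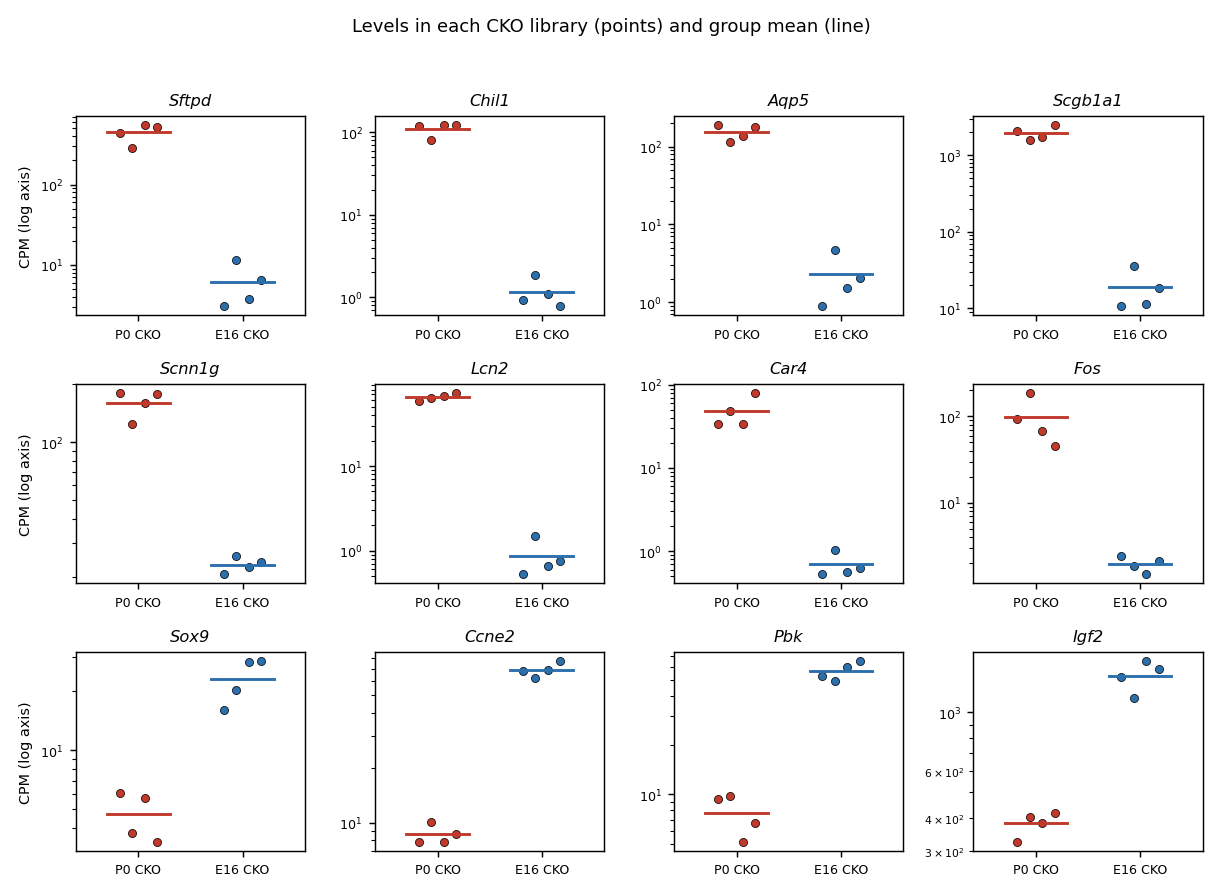
CPM (vertical axes, logarithmic) of 12 genes in each P0 CKO library (red points, left) and E16 CKO library (blue points, right), with lines at the group means. The top 2 rows hold genes that rose and the bottom row genes that fell, and in none of the 12 do the P0 and E16 points overlap.

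Transcripts of the airway's secretory cells were higher at birth, with 10 of 14 markers higher, none lower and a median log2 fold change of 2.57. Scgb1a1 (ENSMUSG00000024653, mm10 chromosome 19, 9083636 to 9087958), the club cell secretory protein, had 2063, 1602, 1732 and 2504 CPM in P0 CKO lungs and 10.7, 35.7, 11.2 and 18.3 CPM in E16 CKO lungs (log2 fold change 6.71 ± 0.46, edgeR adjusted p = 2.56e-05). The P0 levels were alike among the 4 lungs, while the E16 levels ran over a wider ratio, highest in replicate 2. Cyp2f2, a club cell cytochrome P450, rose by log2 2.84 ± 0.20, the carbonyl reductase Cbr2 by log2 3.69 ± 0.27, and Scgb3a2, expressed earlier in the airway, by log2 2.20 ± 0.16. Of 17 ciliated cell genes 5 rose and 1 fell (7 higher and 1 lower without P0 CKO replicate 1). The tubulin-binding protein gene Tppp3 (75.2 to 171 CPM at P0, 14.4 to 20.6 CPM at E16) and the axonemal dynein gene Dnah9 rose, by log2 2.82 ± 0.25 and 1.69 ± 0.28. Mcidas, which switches on the multiciliated programme, was the gene that fell (log2 fold change -1.84 ± 0.38, edgeR adjusted p = 0.00503).

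Genes that move salt and water out of the airspace rose. All 3 subunits of the epithelial sodium channel were higher, with Scnn1g (ENSMUSG00000000216, mm10 chromosome 7, 121734479 to 121768475) at 180.3, 124, 160.0 and 178 CPM in P0 CKO lungs, against 20.7, 25.6, 22.4 and 23.8 CPM in E16 CKO lungs (log2 fold change 2.81 ± 0.16, edgeR adjusted p = 1.43e-05). Scnn1b and Scnn1a rose by log2 3.18 ± 0.24 and 2.72 ± 0.28. The water channel Aqp1 of capillaries and mesothelium had 1065, 919.5, 915 and 968 CPM at P0 and 98.4, 148, 134 and 113 CPM at E16 (log2 fold change 2.98 ± 0.16, edgeR adjusted p = 1.43e-05). Sgk1, the hormone-responsive kinase that keeps the sodium channel at the surface, rose by log2 3.43 ± 0.27. Of 15 transport genes tested, 8 rose and 2 fell, and the 2 that fell were the chloride channels Cftr (log2 fold change -0.89 ± 0.24) and Clcn2 (-0.57 ± 0.20), both chosen after their values were seen. The count of falls was 1 without P0 CKO replicate 1 or 3 or E16 CKO replicate 2, 3 or 4, and 0 without P0 CKO replicates 1 and 3. The call of Clcn2 was lost in 10 of 19 alternatives, with an edgeR adjusted p of up to 0.246.

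DNA replication genes fell almost without exception. Of 40 tested, 39 were lower and none higher, against 17% of all genes lower, at a median log2 fold change of -1.48. The remaining one, Gins2, chosen after its values were seen, had a log2 fold change of -0.45 ± 0.20 (edgeR adjusted p = 0.113). Prim1 (ENSMUSG00000025395, mm10 chromosome 10, 128015168 to 128030037), the catalytic primase subunit, stood at 18.6, 16.3, 12.8 and 13 CPM in P0 CKO lungs, against 63.3, 62.6, 68.4 and 72.5 CPM in E16 CKO lungs (log2 fold change -2.12 ± 0.16, edgeR adjusted p = 3.25e-05). Tyms, which makes thymidylate, had 22.5, 23.9, 15.9 and 16.3 CPM at P0 and 73, 69.9, 82.7 and 79.5 CPM at E16 (log2 fold change -1.95 ± 0.17). Pole2, a subunit of the leading-strand polymerase, Rfc4, a subunit of the clamp loader, and Mcm4 of the replicative helicase had log2 fold changes of -1.67 ± 0.14, -1.86 ± 0.14 and -1.66 ± 0.15. No library of one age entered the range of the other for any of these 5 genes.

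Mitosis genes fell without exception. All 38 tested were lower, at a median log2 fold change of -2.27 (-2.41 without P0 CKO replicate 1), and their summed level was 1506, 1948, 1083 and 802 CPM in P0 CKO lungs, against 7033, 5692, 5675 and 6253 CPM in E16 CKO lungs. Replicate 2 kept the highest mitotic level at P0 and replicate 4 the lowest. Pbk (ENSMUSG00000022033, mm10 chromosome 14, 65805837 to 65817822), a mitotic kinase, stood at 9.34, 9.77, 5.13 and 6.65 CPM at P0 and 52.7, 49.2, 59.9 and 65.1 CPM at E16 (log2 fold change -2.87 ± 0.23, edgeR adjusted p = 3.73e-05). The condensin subunits Ncapg and Ncaph had log2 fold changes of -2.82 ± 0.28 and -1.68 ± 0.17, the cytokinesis factor Ect2 one of -2.34 ± 0.21 and the spindle checkpoint gene Mad2l1 one of -2.01 ± 0.18.

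Among the genes that govern entry into S phase, 10 of 24 fell and 4 rose (4 higher and 12 lower without P0 CKO replicate 1). Ccne2 (ENSMUSG00000028212, mm10 chromosome 4, 11191351 to 11204779), a cyclin that starts S phase, had 7.84, 10.1, 7.85 and 8.69 CPM in P0 CKO lungs and 67.8, 62.2, 68.5 and 77.1 CPM in E16 CKO lungs (log2 fold change -2.99 ± 0.15, edgeR adjusted p = 1.17e-05). Each age's levels lay close together, with no overlap. E2f7, an atypical E2F, and Rbl1, the pocket protein p107, fell, with log2 fold changes of -2.10 ± 0.18 and -1.56 ± 0.16. The pair of genes that rose most encode inhibitors of cyclin-dependent kinases. Cdkn2b stood at 22.3, 24.5, 28.9 and 23.6 CPM at P0, against 2.96, 4.83, 4.51 and 5.09 CPM at E16 (log2 fold change 2.52 ± 0.21, edgeR adjusted p = 4.61e-05). Cdkn1a, which is also induced by p53 and by stress, had 77.1, 192, 141 and 59.5 CPM at P0, highest in replicate 2, and 12.9, 13.2, 15.6 and 11.6 CPM at E16 (log2 fold change 3.15 ± 0.36).

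Because these cell-cycle genes moved together, their promoters are shown, taken from RefSeq (GRCm38.p6), from 250 bases before to 50 after the start, 5′ to 3′ on the gene's strand. The E2F motif was searched as TTTNNCGC and the cell-cycle homology region (CHR), the site of the DREAM and MuvB complexes, as TTTGAA, each on both strands, and no match of one overlapped a match of the other in any promoter searched. Of the 33 DNA replication genes with a promoter in the table, 15 held the E2F letters (45.5%), against 8.02% of the 11914 tested genes with a promoter. Of 30 mitosis genes, 22 held the CHR letters (73.3%), against 12.2% of tested genes, and 3 held the E2F letters (10%). Among all genes called lower 12.4% held the E2F letters and 16.9% the CHR letters, and among all called higher 4.2% and 11.5%. Capitals mark the E2F match in Pole2 (chr12:69228141-69228440, minus strand) and Tyms (chr5:30073576-30073875, minus strand), and the CHR match in Ncapg (chr5:45669675-45669974, plus strand) and Ect2 (chr3:27153829-27154128, minus strand), genes shown for their fall and for holding a match. A match describes the letters only.
Pole2: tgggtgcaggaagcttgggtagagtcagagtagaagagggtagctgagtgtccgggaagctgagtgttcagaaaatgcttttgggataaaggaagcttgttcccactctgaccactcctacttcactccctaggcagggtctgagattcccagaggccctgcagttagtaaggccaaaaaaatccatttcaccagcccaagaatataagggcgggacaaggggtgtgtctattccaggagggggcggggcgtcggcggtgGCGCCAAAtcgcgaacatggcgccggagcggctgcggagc
Tyms: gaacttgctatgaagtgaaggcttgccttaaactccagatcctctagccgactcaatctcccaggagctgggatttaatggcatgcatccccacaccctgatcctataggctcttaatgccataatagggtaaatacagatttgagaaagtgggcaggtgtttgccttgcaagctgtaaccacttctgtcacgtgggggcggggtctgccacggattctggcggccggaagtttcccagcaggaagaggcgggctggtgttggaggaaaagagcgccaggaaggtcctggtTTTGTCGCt
Ncapg: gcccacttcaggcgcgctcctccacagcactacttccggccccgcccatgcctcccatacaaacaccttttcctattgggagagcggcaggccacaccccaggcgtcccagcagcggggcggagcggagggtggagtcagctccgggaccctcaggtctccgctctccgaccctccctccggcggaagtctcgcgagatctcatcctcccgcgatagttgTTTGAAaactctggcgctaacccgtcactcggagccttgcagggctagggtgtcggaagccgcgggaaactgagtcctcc
Ect2: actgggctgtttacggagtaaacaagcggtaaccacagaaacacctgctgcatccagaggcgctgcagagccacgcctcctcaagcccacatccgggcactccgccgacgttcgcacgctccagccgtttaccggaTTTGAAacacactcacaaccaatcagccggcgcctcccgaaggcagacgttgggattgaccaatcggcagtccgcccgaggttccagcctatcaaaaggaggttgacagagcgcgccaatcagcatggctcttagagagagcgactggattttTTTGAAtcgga

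Fetal growth genes fell, 12 of 23 tested, with 1 higher (1 higher and 11 lower without P0 CKO replicate 1). Igf2 (ENSMUSG00000048583, mm10 chromosome 7, 142650766 to 142666816), the imprinted fetal growth factor, stood at 324, 404, 381 and 418 CPM in P0 CKO lungs, against 1362, 1130.0, 1566 and 1457 CPM in E16 CKO lungs (log2 fold change -1.84 ± 0.15, edgeR adjusted p = 4.59e-05). Its neighbour H19, an imprinted noncoding RNA expressed from the other parental chromosome, fell as well, with 729.5, 1143, 896 and 726 CPM at P0 and 4046, 3442, 4739 and 4466 CPM at E16 (log2 fold change -2.24 ± 0.19). Igf2bp1, which binds fetal mRNAs, the imprinted adaptor Grb10 and the chromatin protein Hmga2 had log2 fold changes of -1.49 ± 0.16, -1.32 ± 0.15 and -1.35 ± 0.17. The gene that rose was the imprinted noncoding RNA Meg3, chosen after its values were seen (log2 fold change 0.94 ± 0.28, edgeR adjusted p = 0.0266), and its call was lost without any 1 of the 4 E16 CKO libraries or without P0 CKO replicate 2 or 3. In the IGF axis 4 of 9 genes rose and 1 fell, beside 18.1% and 17% of all genes, at a median log2 fold change of 0.24. The binding protein gene Igfbp2, given above as a type 1 marker, fell, while 3 other binding protein genes rose. These were led by Igfbp7 at 114, 138, 154 and 155 CPM at P0 and 28.4, 30.3, 30.04 and 35.2 CPM at E16 (log2 fold change 2.19 ± 0.15, edgeR adjusted p = 2.08e-05). Igfbp6 and Igfbp3 rose by log2 1.93 ± 0.32 and 1.95 ± 0.33.

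The mesenchyme, the tissue in which this Cre is active, changed in part. Of 22 alveolar fibroblast markers 9 rose and 3 fell, and without P0 CKO replicate 1 the counts were 8 and 1. The count of falls was also 1 without P0 CKO replicate 3 or E16 CKO replicate 2, 3 or 4, and 5 without P0 CKO replicate 2. Limch1, an actin-linked protein, had 607, 764, 935 and 729.9 CPM in P0 CKO lungs and 198, 235, 133 and 259.6 CPM in E16 CKO lungs (log2 fold change 1.89 ± 0.22, edgeR adjusted p = 0.000267). Inmt, which methylates indoleamines, rose by log2 5.38 ± 0.62 and was highest in P0 CKO replicate 1 (22.2, 5.69, 7.29 and 9.13 CPM in P0 CKO lungs, 0.0998, 0.329, 0.14 and 0.472 CPM in E16 CKO lungs). Pdgfra, the receptor by which fibroblast progenitors respond to PDGF, was the opposite case, with 110.2, 91.7, 108 and 88.7 CPM at P0 and 235, 169, 137 and 226 CPM at E16 (log2 fold change -0.93 ± 0.19, edgeR adjusted p = 0.00405). In adventitial fibroblast markers 6 of 14 rose and 2 fell (5 higher and 1 lower without P0 CKO replicate 1), with the stem cell antigen gene Ly6a at log2 5.05 ± 0.37 and the ferritin receptor Scara5 at log2 -2.01 ± 0.36.

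Among 14 smooth muscle markers 6 rose and 1 fell, beside 18.1% and 17% of all genes. Tagln (transgelin) stood at 477, 276, 604 and 390.0 CPM in P0 CKO lungs, against 123, 78.6, 79.1 and 103 CPM in E16 CKO lungs (log2 fold change 2.20 ± 0.26, edgeR adjusted p = 0.000252). Acta2 (ENSMUSG00000035783, mm10 chromosome 19, 34241090 to 34255590), smooth muscle actin, stood at 1212, 1728, 1399 and 905 CPM at P0 and 499, 461, 417 and 413 CPM at E16, with replicate 2 highest (log2 fold change 1.56 ± 0.20, edgeR adjusted p = 0.000361). Des (desmin), which heart and skeletal muscle also make, had 266, 49, 258 and 209 CPM at P0, lowest in replicate 2, and 34.5, 22.9, 24.3 and 41.7 CPM at E16 (log2 fold change 2.67 ± 0.47). The cardiac marker sum was also lowest in that replicate among P0 lungs, while Acta2 was highest there, and no link between these levels was tested. The WNT co-receptor Lgr6 of airway smooth muscle fell (log2 fold change -1.25 ± 0.16, edgeR adjusted p = 0.000379). Of 15 pericyte markers 5 rose, Mcam by log2 1.11 ± 0.14 and Higd1b by log2 2.03 ± 0.27. Of 14 mesothelial markers 3 rose and 1 fell, or 5 rose without E16 CKO replicate 1. With all 8 libraries the mesothelial rises were near the share of all genes, and the falls below it. Msln (mesothelin) had 547, 336, 665 and 648 CPM at P0 and 48.5, 111, 58.3 and 78.5 CPM at E16 (log2 fold change 2.90 ± 0.31, edgeR adjusted p = 0.000152), and Calb2 (calretinin) fell (log2 fold change -2.87 ± 0.43).

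Some matrix genes rose and others fell. Eln (elastin, ENSMUSG00000029675, mm10 chromosome 5, 134702593 to 134747323) stood at 3184, 1693, 3129 and 4449.6 CPM in P0 CKO lungs, against 1214, 958, 986 and 1296 CPM in E16 CKO lungs (log2 fold change 1.49 ± 0.27, edgeR adjusted p = 0.00215), and Fbln5, which assembles elastic fibres, rose by log2 1.14 ± 0.15. Fbn2, the fetal fibrillin, fell, with 162, 280.0, 231 and 121 CPM at P0 and 872, 624, 526 and 634 CPM at E16 (log2 fold change -1.73 ± 0.27, edgeR adjusted p = 0.00108). Over the elastic fibre list 8 of 19 rose and 2 fell, and the count of rises was 5 without any of P0 CKO replicates 1 and 3 and E16 CKO replicates 2, 3 and 4, and 4 without both of the P0 ones. In the collagen list 7 of 25 rose and 4 fell (6 higher and 4 lower without P0 CKO replicate 1), beside 18.1% and 17% of all genes. The basement membrane chains Col4a1 and Col4a2 rose by log2 1.20 ± 0.17 and 1.48 ± 0.17, and fibronectin (Fn1) by 1.62 ± 0.24, while Col15a1, a collagen next to basement membranes, fell (log2 fold change -1.57 ± 0.22).

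Patterning genes of the mesenchyme were lower more often than higher, 9 of 23 against 3. Without P0 CKO replicate 1 the counts were 9 and 1, and without P0 CKO replicates 1 and 3 they were 4 and 1. The rises were 1 also without P0 CKO replicate 3 or 4 or E16 CKO replicate 1, and 0 without E16 CKO replicate 2 or 4. Of the 9 lower genes 5 belong to the Hoxb cluster, which patterns the body axis. Hoxb6 had 1.32, 1.02, 0.416 and 0.954 CPM in P0 CKO lungs and 3.33, 3.29, 7.2 and 3.81 CPM in E16 CKO lungs (log2 fold change -2.24 ± 0.42, edgeR adjusted p = 0.00286), and Hoxb2, Hoxb3, Hoxb4 and Hoxb5 had log2 fold changes from -1.19 to -0.90. Of the signals that direct branching, the ligand Shh of the distal epithelium stood at 23.4, 13.2, 18.7 and 24.1 CPM at P0 and 31.7, 42.7, 47.8 and 46.5 CPM at E16 (log2 fold change -1.08 ± 0.22, edgeR adjusted p = 0.00401). Its transducer Smo fell (log2 fold change -0.76 ± 0.15). The other 6 of 8 hedgehog genes did not pass, beside 17% of all genes called lower, though 5 of the 8 fell without P0 CKO replicate 2. The growth factor Fgf9 and the epithelial FGF receptor Fgfr2 fell, with log2 fold changes of -2.05 ± 0.32 and -0.73 ± 0.13. The feedback inhibitors Spry1 and Dusp6 rose by log2 1.75 ± 0.24 and 1.16 ± 0.17. Over this FGF list of 16, 4 were higher and 3 lower (4 higher and 2 lower without P0 CKO replicate 1). That was near the 18.1% and 17% of all genes, and the list's median log2 fold change was 0.12. Among 20 WNT pathway genes 3 rose and 4 fell (3 higher and 5 lower without P0 CKO replicate 1, and 2 fell without P0 CKO replicate 3 or E16 CKO replicate 3 or 4), shares close to those of all genes, with the ligand gene Wnt4 at log2 1.48 ± 0.30 and the WNT amplifier Rspo2 at -1.48 ± 0.33. In the BMP and TGF-beta list 7 of 21 rose and 3 fell (7 higher and 5 lower without P0 CKO replicate 1).

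Endothelial genes were higher at birth. Of 15 general markers 10 rose and none fell, with Pecam1 at 791, 719, 713 and 766 CPM in P0 CKO lungs and 356, 416, 363 and 423 CPM in E16 CKO lungs (log2 fold change 0.95 ± 0.12, edgeR adjusted p = 0.000383). The tight junction gene Cldn5 rose by log2 1.60 ± 0.18, and the adrenomedullin receptor Calcrl by 1.70 ± 0.19. Of 12 capillary markers 7 rose and 1 fell (8 higher and 1 lower without P0 CKO replicate 1), at a median log2 fold change of 1.23. Car4 (ENSMUSG00000000805, mm10 chromosome 11, 84957786 to 84966044), the carbonic anhydrase of the gas-exchange capillary, stood at 33.7, 48.6, 33.7 and 79.98 CPM in P0 CKO lungs, against 0.532, 1.04, 0.559 and 0.629 CPM in E16 CKO lungs (log2 fold change 6.14 ± 0.39, edgeR adjusted p = 1.78e-05). No E16 lung exceeded 1.04 CPM and no P0 lung was under 33.7 CPM. Prx (periaxin) and the lipoprotein lipase anchor Gpihbp1 rose by log2 2.15 ± 0.21 and 1.60 ± 0.20. The marker that fell was the apelin receptor Aplnr, chosen after its values were seen (log2 fold change -1.22 ± 0.24), while its ligand Apln rose (log2 1.50 ± 0.17).

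Transcripts of neutrophils, macrophages, mast cells and the interferon response were higher at birth. Neutrophil markers summed to 216, 322, 329 and 275 CPM in P0 CKO lungs, against 16.6, 14.5, 17 and 13.6 CPM in E16 CKO lungs. Of the 21 markers 15 were tested, and 13 of these rose with none lower. A marker low at E16 could pass the filter through its P0 levels alone, which favours rises among those tested. Lcn2 (ENSMUSG00000026822, mm10 chromosome 2, 32384633 to 32388252), which starves bacteria of iron and which epithelium also makes, had 58.8, 63.2, 66.6 and 73 CPM at P0 and 0.532, 1.51, 0.664 and 0.755 CPM at E16 (log2 fold change 6.23 ± 0.32, edgeR adjusted p = 1.17e-05). S100a8 and S100a9, the subunits of calprotectin, rose by log2 4.18 ± 0.28 and 4.28 ± 0.32, and the granule protein gene Ngp by 5.11 ± 0.32. Macrophage and monocyte genes rose in 15 of 24 cases with none lower (17 higher and 0 lower without P0 CKO replicate 1). Marco, a scavenger receptor of alveolar macrophages, had 6.59, 5.8, 13.5 and 15.4 CPM at P0 and 0.0998, 0.165, 0.175 and 0 CPM at E16 (log2 fold change 6.51 ± 0.66, edgeR adjusted p = 0.000125), and Csf1r, the receptor that macrophages need, rose by log2 1.32 ± 0.14.

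Antigen presentation genes depended on the thymus-marked library in size but not in call. Cd74, the invariant chain, stood at 213, 74.5, 49.6 and 53.3 CPM in P0 CKO lungs, highest in replicate 1, against 8.95, 15.9, 12.1 and 12.8 CPM in E16 CKO lungs (log2 fold change 2.98 ± 0.48, edgeR adjusted p = 0.00152). Without that library the value was 2.26 ± 0.21 (edgeR adjusted p = 0.000257), and over the class II list 5 of 6 rose either way. Interferon-response genes rose in 22 of 29 cases and 1 fell (21 higher and 1 lower without P0 CKO replicate 1). Irf7, which drives type I interferon, had 7.8, 11.6, 6.18 and 8.31 CPM at P0 and 1.7, 1.89, 1.96 and 1.89 CPM at E16 (log2 fold change 2.20 ± 0.25, edgeR adjusted p = 0.00022), and Isg15, a ubiquitin-like modifier, rose by log2 3.12 ± 0.44. Of 13 mast cell and type 2 genes 10 were tested and 6 rose, with the same limit as for the neutrophil markers. Areg, an epidermal growth factor family ligand, had 21.5, 37.4, 44.5 and 30.5 CPM at P0 and 3.53, 6.53, 5.55 and 5.79 CPM at E16 (log2 fold change 2.66 ± 0.27, edgeR adjusted p = 0.000123). Thymus markers were called in 5 of 11 cases as higher with all libraries, and without P0 CKO replicate 1 as 4 higher and 3 lower. The count higher was 0 without E16 CKO replicate 1, 1 without E16 CKO replicate 2, 3 or 4, and 8 without P0 CKO replicate 4. The list's median log2 fold change was 4.68 with all libraries and -0.2 without replicate 1.

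Immediate early genes, which answer stimuli within minutes, were higher at birth in 18 of 20 cases, at a median log2 fold change of 2.95. Fos (ENSMUSG00000021250, mm10 chromosome 12, 85473890 to 85477273), a subunit of the AP-1 factor, stood at 92.4, 187, 67.9 and 45.6 CPM in P0 CKO lungs, against 2.4, 1.86, 1.5 and 2.11 CPM in E16 CKO lungs (log2 fold change 5.65 ± 0.46, edgeR adjusted p = 4.88e-05). P0 CKO replicate 2 was the highest for Fos, and the summed level of the list was 1441, 4769.9, 1641 and 1210.4 CPM in P0 CKO lungs, against 261 to 311 CPM in E16 CKO lungs. Klf4, a factor induced in the same way, had 78.6, 142, 148 and 116 CPM at P0 and 11, 13.8, 12.4 and 14.3 CPM at E16 (log2 fold change 3.24 ± 0.22, edgeR adjusted p = 2.08e-05). Socs3, an inhibitor of cytokine signalling, rose by log2 2.76 ± 0.25. Without replicate 2 the count was also 18 of 20 and the median 2.74. How the tissue was handled between birth and extraction is not given in the sources used here, and its part in these levels was not tested.

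Glucocorticoid-responsive genes rose in 9 of 18 cases and 1 fell (9 higher and 0 lower without P0 CKO replicate 1). Their sum was highest in P0 CKO replicate 2, at 1296, 3304, 1935 and 1272 CPM in P0 CKO lungs and 855 to 1099 CPM in E16 CKO lungs. Dusp1, a phosphatase that ends MAP kinase signalling and is also an immediate early gene, had 221, 322, 159.6 and 161 CPM in P0 CKO lungs and 16.9, 16.4, 19.7 and 22.6 CPM in E16 CKO lungs (log2 fold change 3.52 ± 0.25, edgeR adjusted p = 2.8e-05). Pdk4, which shifts fuel use away from glucose, and the metallothionein Mt2 rose by log2 2.92 ± 0.36 and 3.19 ± 0.48, and Tsc22d3 (GILZ) by 0.84 ± 0.14. Of these, Tsc22d3 had the evenest levels, 103, 90.7, 121 and 87.5 CPM at P0 and 49.1, 59, 57.1 and 60.9 CPM at E16. Clock genes rose in 8 of 19 cases and 1 fell (10 higher and 1 lower without P0 CKO replicate 1). The repressor Nr1d1 had 14, 21.5, 34 and 14.1 CPM at P0 and 2.9, 3.45, 3.14 and 2.11 CPM at E16 (log2 fold change 2.86 ± 0.33, edgeR adjusted p = 0.000229), and Bhlhe41 and Cry2, further repressors, rose by log2 3.12 ± 0.35 and 1.29 ± 0.23. The clock list's sum, too, was highest in P0 CKO replicate 2, at 1802 CPM, and the hour of collection is not given in the sources used here.

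Metabolic groups differed from each other. Of 30 respiratory chain genes 1 fell and none rose, at a median log2 fold change of -0.04, and the one was the ATP synthase subunit Atp5o (log2 fold change -0.35 ± 0.12, edgeR adjusted p = 0.0428). That call was lost in 11 of 19 alternatives, among them leaving out any 1 of the 4 E16 CKO libraries or P0 CKO replicate 2 or 4. In the glycolysis and hypoxia list 5 of 24 rose and 8 fell, beside 18.1% and 17% of all genes, or 5 fell without P0 CKO replicate 4. The rises were thus near the share of all genes. The glycolytic enzymes Pgam1 (log2 -1.07 ± 0.15) and Eno1 (log2 -0.79 ± 0.15) were among those that fell. Epas1 (HIF-2 alpha), abundant in endothelium, went against these, with 514, 418, 580.0 and 907 CPM in P0 CKO lungs and 71.9, 115, 101 and 113 CPM in E16 CKO lungs (log2 fold change 2.61 ± 0.26, edgeR adjusted p = 0.00011), and so did Vegfa, the angiogenic factor made by alveolar epithelium (log2 1.38 ± 0.19). Antioxidant genes rose in 13 of 25 cases and fell in 2 (12 higher and 3 lower without P0 CKO replicate 1). Gpx3, the secreted glutathione peroxidase, had 301, 168, 227 and 259 CPM at P0 and 64.5, 46.3, 55.9 and 57.6 CPM at E16 (log2 fold change 2.10 ± 0.19, edgeR adjusted p = 8.16e-05), and Srxn1, which repairs peroxiredoxins, rose by log2 2.57 ± 0.27. Of 15 xenobiotic enzyme genes 10 were tested and 8 rose, with Cyp2b10 at log2 3.37 ± 0.33 and the epoxide hydrolase Ephx1 at 1.49 ± 0.19. Here too a gene low at E16 could pass the filter through its P0 levels alone.

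Genes that build ribosomes fell in part, and none rose. In the ribosome biogenesis list 12 of 28 fell (18 without replicate 1), at a median log2 fold change of -0.51. Dkc1, the pseudouridine synthase of small nucleolar particles, stood at 20.7, 33.7, 33.7 and 29.95 CPM in P0 CKO lungs, against 89.1, 80.3, 92.6 and 87.6 CPM in E16 CKO lungs (log2 fold change -1.55 ± 0.17, edgeR adjusted p = 0.000184), and nucleolin (Ncl) fell too (log2 fold change -0.73 ± 0.16). Ribosomal protein genes fell in 10 of 32 cases, at a median log2 fold change of -0.45. That count was 7 without P0 CKO replicate 1, 25 without P0 CKO replicate 2, 4 without P0 CKO replicate 3 or 4 or E16 CKO replicate 2, 3 or 4, and 2 without P0 CKO replicates 1 and 3. Single libraries thus decided it. Rpl3, a protein of the large subunit, had 622, 840.2, 623 and 679.5 CPM at P0, highest in replicate 2, and 930.5, 1129.8, 1201 and 1095 CPM at E16 (log2 fold change -0.64 ± 0.15, edgeR adjusted p = 0.00808).

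In the SIN3 complex 7 of 20 genes fell and none rose. Fam60a, a subunit that associates with the complex, stood at 40.8, 50.2, 40.3 and 45.1 CPM in P0 CKO lungs, against 85.5, 82.4, 105 and 85.3 CPM in E16 CKO lungs (log2 fold change -1.01 ± 0.13, edgeR adjusted p = 0.000465). The deacetylases Hdac1 and Hdac2 fell, with log2 fold changes of -0.73 ± 0.12 and -0.84 ± 0.14, and the histone-binding subunit Rbbp7 with -0.72 ± 0.12. In control lungs 9 of the 20 fell and 1 rose. Of 18 p53 targets 5 rose and 2 fell, with 3 rises without P0 CKO replicate 1 or E16 CKO replicate 1, 2 or 4, against 18.1% of all genes higher and 17% lower. Perp, a desmosomal protein gene, rose by log2 1.17 ± 0.13, and Trp53 itself fell, with 88.4, 47.7, 43.9 and 62.4 CPM at P0 and 96, 117, 149 and 118 CPM at E16 (log2 fold change -0.97 ± 0.23, edgeR adjusted p = 0.00918).

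Apart from the lists, the largest rises at a mean log2 CPM of at least 1 included 4 thymocyte genes, Cd8a, Rag1, Trbc2 and Cd3g. Rag1, which cuts antigen receptor genes, had 498, 1.76, 3.3 and 0.818 CPM in P0 CKO lungs and 0.166, 0.137, 0.0699 and 0.0629 CPM in E16 CKO lungs. Replicate 1 thus held most of the signal, and the log2 fold change of 10.12 ± 2.72 became 4.12 ± 0.60 without it. The calls of all 4 genes were lost by DESeq2, by limma-voom and by edgeR without E16 CKO replicate 1, 2 or 3. Lyz1, a second lysozyme gene, had 1183, 2690.2, 1189 and 2422 CPM at P0 and 3.03, 18.2, 4.3 and 8.65 CPM at E16 (log2 fold change 7.78 ± 0.70, edgeR adjusted p = 9.56e-05), and its reads may be shared with Lyz2, a close copy. The phosphate transporter family gene Slc17a2 had 4.54, 4.08, 6.38 and 7.16 CPM at P0 and 0, 0, 0 and 0.0314 CPM at E16. Cxcl17, a mucosal chemokine, had 8.54, 1.12, 12.2 and 6.99 CPM at P0 and 0.0333, 0, 0 and 0.0314 CPM at E16. With so few E16 counts no fold is given for these 2 genes. Genes in this ranking had to have no overlap between ages. The call of Fosb was lost by DESeq2 and by limma-voom. The size of its change was set by replicate 2, with 11.4, 308, 11.8 and 4.7 CPM at P0 and 0.399, 0.165, 0.489 and 0.126 CPM at E16. Ivl (involucrin) likewise had its highest level in replicate 2, at 1.21, 19.997, 1.11 and 3.95 CPM in P0 CKO lungs and 0.0666, 0.0274, 0.0349 and 0 CPM in E16 CKO lungs. Chil3, a chitinase-like protein gene of macrophages and neutrophils, rose by log2 7.39 ± 0.67.

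The 10 largest falls held no thymus or muscle gene. Cym, which encodes the milk-clotting protease chymosin, stood at 1.5, 0.176, 1.52 and 0.273 CPM in P0 CKO lungs, against 28.3, 30.3, 36.9 and 34.8 CPM in E16 CKO lungs (log2 fold change -5.19 ± 0.60, edgeR adjusted p = 0.000277). Cldn6, a tight junction protein of fetal epithelium, had 6.3, 4.71, 4.8 and 3.41 CPM at P0 and 57.8, 57.1, 79.4 and 78.1 CPM at E16 (log2 fold change -3.81 ± 0.23, edgeR adjusted p = 1.56e-05). A lack of overlap between ages was required of all 10 genes by the rule that ranked them. Cfi, the complement factor that cleaves C3b, had a log2 fold change of -4.09 ± 0.31, Slitrk6, a transmembrane protein of neural and epithelial tissue, one of -3.52 ± 0.42 and the metalloprotease Adamts18, which acts in organ branching, one of -3.41 ± 0.44. Ppp1r3b, which targets phosphatase to glycogen, had 34.7, 31.8, 18.1 and 21.1 CPM at P0 and 214, 255, 205 and 254 CPM at E16 (log2 fold change -3.12 ± 0.23, edgeR adjusted p = 2.85e-05). Car12, Slfn9, Lemd1 and Nr1h5 completed the list of 10, at log2 -3.34 ± 0.35, -3.16 ± 0.31, -3.38 ± 0.75 and -3.68 ± 0.68.

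The change to birth in CKO lungs was largely shared with control lungs, which were other animals. In controls 3955 of 17116 genes were higher at P0 (23.1%) and 3445 lower (20.1%). P0 control replicate 3 also held thymus RNA, with a thymus sum of 3111 CPM, against 97.3 CPM or less in the other 7 control libraries. Among genes tested in both genotypes, 2718 of the 3011 called higher in CKO lungs were called higher in controls (90.3%, and 70.7% of the 3846 control calls). Of 2863 called lower in CKO lungs, 2460 were called lower in controls (85.9%, and 72% of 3419). No gene was called in opposite directions. Across 16666 genes, which are not independent, the log2 fold changes had a Pearson correlation of 0.93 and a Spearman correlation of 0.92, and 89.3% had the same sign. Without the library high in thymus markers in each genotype, 91.3% of the CKO calls higher and 88.1% of those lower were also called in controls, and they made up 65.1% and 69.6% of the control calls. The Pearson correlation was then 0.89, and 87.9% of genes had the same sign. The P0 CKO and P0 control libraries high in thymus markers share the leading number of their labels.

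**Figure D4:**
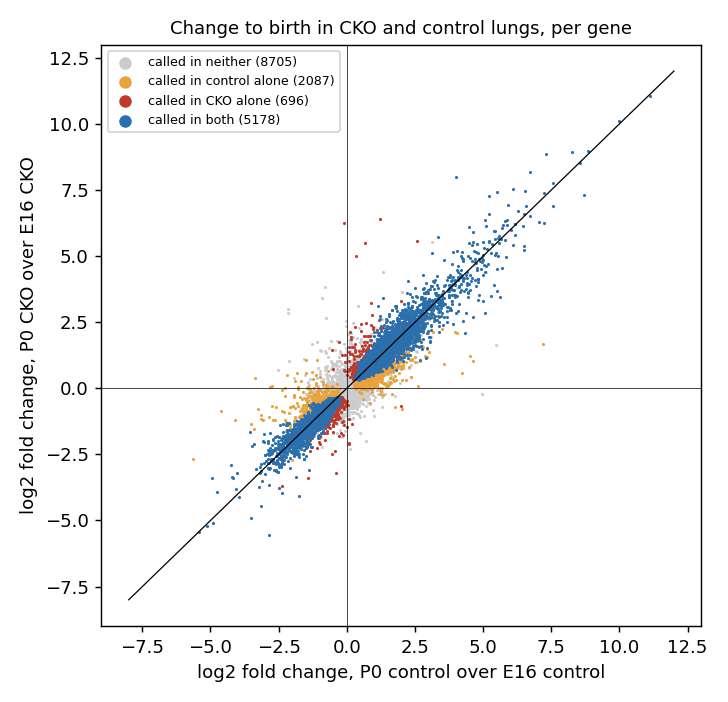
Log2 fold change of each gene in P0 CKO over E16 CKO lungs (vertical axis) against P0 control over E16 control lungs (horizontal axis), with a line of equal change. Of 16666 genes, 5178 were called in both genotypes (blue), 696 in CKO lungs alone (red), 2087 in control lungs alone (orange) and 8705 in neither (grey).

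Epithelial and cell-cycle lists had like counts in both genotypes. Alveolar type 2 markers rose in 17 of 20 cases in CKO lungs and in 18 of 20 in controls, type 1 markers in 17 of 18 in CKO lungs and 16 of 18 in controls, and mitosis genes fell in 38 of 38 in both. Counts were further apart for several other lists, and examples are given here. Over all genes tested, 18.1% were called higher and 17% lower in CKO lungs, against 23.1% and 20.1% in controls. Mesothelial markers rose in 3 of 14 cases in CKO lungs (5 without E16 CKO replicate 1) and in 10 in controls. Pericyte markers rose in 5 of 15 in CKO lungs and 9 of 15 in controls. Smooth muscle markers went the other way, with 6 of 14 higher in CKO lungs and 4 of 14 in controls. Erythroid markers rose in 2 of 17 cases in CKO lungs (0 to 3 when 1 library was left out) and in 7 of 16 in controls. Ribosomal protein genes fell in 10 of 32 cases in CKO lungs (25 without P0 CKO replicate 2) and in 25 of 32 in controls. Their median log2 fold change was nonetheless alike, at -0.45 in CKO lungs and -0.47 in controls. A call in one genotype and not in the other does not show that the changes differ, and the difference itself was tested over all genes.

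None of 18041 genes passed the test of that difference (edgeR, 0%), the smallest adjusted p being 0.615. At an unadjusted p under 0.05 there were 352 genes, 213 with a higher and 139 with a lower change in CKO lungs. DESeq2 called 17 and limma-voom none. In a fit chosen after seeing the data, the leading number of the labels, which CKO and control libraries of an age share, entered as a block of 7 numbers, and 0 genes passed (702 at an unadjusted p under 0.05, smallest adjusted p 0.263). The genes with the smallest p, named by rule, had the values below and did not pass by edgeR. By DESeq2 7 of the 12 did, Acta2, Xpnpep2, Slc40a1, Hmox1, Gcnt4, Cbr3 and Wdr86, at adjusted p from 0.00183 to 0.0148. Acta2 stood at 1212, 1728, 1399 and 905 CPM in P0 CKO and 499, 461, 417 and 413 CPM in E16 CKO lungs, and at 226, 436, 478 and 441 CPM in P0 control and 387, 460.0, 387 and 326 CPM in E16 control lungs. All 4 P0 CKO lungs lay above the other 12, a gap that naming by the smallest p in these same libraries favours. The difference of the changes was 1.53 ± 0.31 on the log2 scale (unadjusted p = 0.000147 and edgeR adjusted p = 0.615). Hmox1, the heme oxygenase, had 179, 64.1, 215 and 171 CPM in P0 CKO, 37.9, 46.4, 51.5 and 29.5 CPM in E16 CKO, 27.8, 35.8, 26.7 and 34.3 CPM in P0 control and 31.8, 31, 28 and 25.9 CPM in E16 control lungs. P0 CKO replicate 2 was nearest the other groups, and without it Hmox1 alone passed (edgeR adjusted p = 0.00591). Slc40a1, the iron exporter ferroportin, did not pass in CKO lungs (49.9, 36.3, 54.8 and 44.5 CPM at P0, 45.6, 38.1, 45.7 and 40.6 CPM at E16) and fell in controls (22.9, 20.2, 25.9 and 25.9 CPM at P0, 42, 48.1, 40.1 and 38.5 CPM at E16), with a difference of 0.96 ± 0.19. Xpnpep2, a peptidase gene, Gcnt4, which extends O-glycans, and Cbr3, a carbonyl reductase gene, had differences of 1.29 ± 0.26, 2.09 ± 0.43 and 1.75 ± 0.38.

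**Figure D5:**
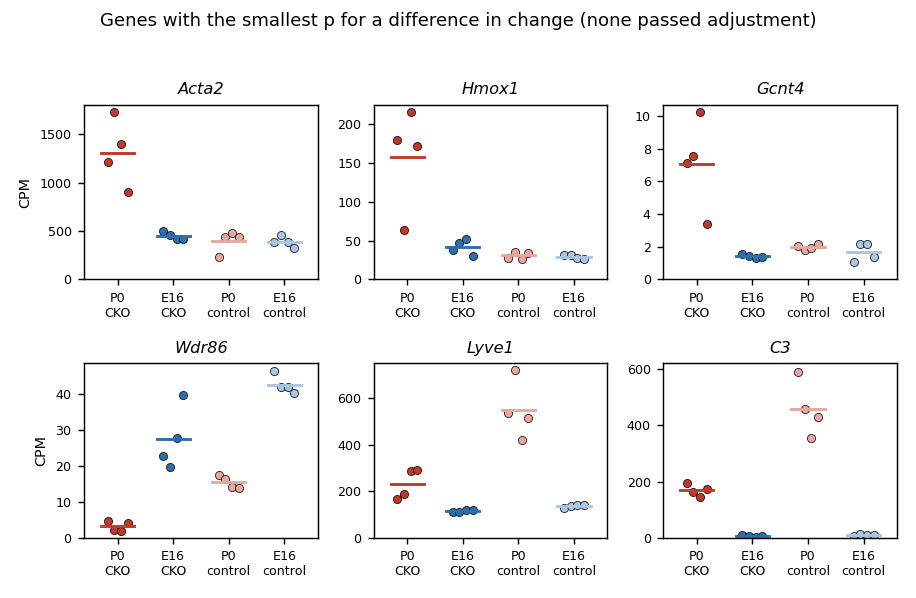
CPM (vertical axes, from 0) of 6 of the genes with the smallest p for a difference in change, in each P0 CKO, E16 CKO, P0 control and E16 control library (points) with group means (lines). Acta2, Hmox1 and Gcnt4 are highest in P0 CKO lungs, while Wdr86 is lowest there and Lyve1 and C3 are highest in P0 control lungs, and none passed adjustment by edgeR.

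On the other side, Lyve1, a hyaluronan receptor of lymphatic endothelium and of some macrophages, had 165, 189, 285 and 291 CPM in P0 CKO, 110.5, 113, 118 and 117 CPM in E16 CKO, 536, 719, 420.3 and 514 CPM in P0 control and 126, 135, 140.1 and 142 CPM in E16 control lungs. It rose in both genotypes, and the difference was -0.99 ± 0.26 (unadjusted p = 0.00138 and edgeR adjusted p = 1). C3, the central complement component, stood at 194, 162, 146 and 172 CPM in P0 CKO, 10.2, 7.07, 4.23 and 7.52 CPM in E16 CKO, 592, 458, 356 and 431 CPM in P0 control and 6.68, 12.2, 8.39 and 9.45 CPM in E16 control lungs, with a difference of -1.11 ± 0.33. The P0 lungs of the 2 genotypes did not overlap for either gene, but both were named for a small p in these same libraries, which favours such a gap. Wdr86, a WD-repeat gene, fell in both genotypes, with 4.54, 2.11, 1.89 and 4.16 CPM in P0 CKO, 22.7, 19.7, 27.8 and 39.7 CPM in E16 CKO, 17.6, 16.2, 14.2 and 14 CPM in P0 control and 46.3, 42, 41.8 and 40.2 CPM in E16 control lungs (difference -1.66 ± 0.37). Cacnb4, a calcium channel subunit, the adenylyl cyclase Adcy8 and the LIM-domain cofactor Ldb2 had differences of -2.47 ± 0.62, -1.65 ± 0.49 and -0.64 ± 0.17.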

How the data were processed

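Whole-lung RNA was prepared with RNeasy Plus and made into TruSeq libraries, per the labels' protocols. The authors deposited expected counts per gene, which are whole numbers in the table, made with STAR 2.5.3a, RSEM 1.3.0 and mm10, per the submitters' processing notes. For the gene annotation, strand setting and filters, the sources used here give nothing. Of 51912 genes, 51719 matched GENCODE M21 identifiers for coordinates, and 102 symbols occur more than once. Expected counts can divide reads between near-identical genes. Without a stated strand setting, overlapping and antisense genes cannot be told apart.

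Here each comparison was fitted with edgeR 4.0.16 (R 4.3.3) on the deposited counts of its own libraries, with filterByExpr, TMM scaling, robust dispersions and the quasi-likelihood test, and a call was an adjusted p under 0.05. The difference between genotypes was an interaction term over 16 libraries. Alternatives used DESeq2 1.42.0, limma-voom (limma 3.58.1), other scalings and filters, a sex covariate, a replicate block, a block by the number that opens each label, a fit of all 24 libraries and each library left out. The code was tested on simulated data. Replicates of a group differed by more than counting noise, so none was counted as a repeat.

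Members and gene lists were chosen with earlier results of these data known. Named genes were Sin3a, Sin3b and, per list, up to 5 members with the smallest p. Added to them were, per direction, the 10 largest changes among genes called with and without P0 CKO replicate 1, at a mean log2 CPM of at least 1 and with no overlap between ages, and the 6 genes with the smallest p for the difference between genotypes. Sex-linked, mitochondrial and unnamed loci were passed over in these rankings, and some named genes are not reported here.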

Additional observations from a re-analysis of the deposited data

Results flagged for a closer look

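Within a group of 4 libraries, 1 library stood far from the other 3 for 21 of 372 gene groups and for 11 of 96 summed list groups, by the 95% limit of Dixon's ratio. Chance gives such a gap in about 1 of 20 groups, and the count of gene groups was near that share. No cause was tested.

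With 7 genes, against 6 for P0 CKO replicate 2, P0 CKO replicate 1 stood apart most often. It was high for the T cell genes Cd8a at 299 CPM (others 0.613 to 2.52), Rag1 at 498 CPM (others 0.818 to 3.30), Trbc2 at 191 CPM (others 0.852 to 2.38) and Cd3g at 49.2 CPM (others 0.341 to 0.804). It was also high for Cd74 at 213 CPM (others 49.6 to 74.5) and Cbr3 at 21.5 CPM (others 10.6 to 11.1), and low for Col4a3 at 147 CPM (others 267 to 281). Its thymus sum was 2449 CPM (others 61.4 to 71.8) and its class II sum 300.2 CPM (others 66.1 to 98.5).

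P0 CKO replicate 2 was high for the stimulus-responsive genes Fosb at 308 CPM (others 4.70 to 11.8) and Socs3 at 117 CPM (others 58.3 to 67.7), and its immediate early sum was 4769.9 CPM (others 1210.4 to 1641). It was further high for Ivl at 19.997 CPM (others 1.11 to 3.95), Mcm4 at 102 CPM (others 68.4 to 73.3) and Scara5 at 19.3 CPM (others 6.41 to 7.22), and low for Chil1 at 80.4 CPM (others 119 to 123).

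P0 CKO replicate 3 stood apart in lists of other tissues. Its skeletal muscle sum was 1245 CPM (others 33 to 57.3), its cartilage sum 399 CPM (others 38.4 to 55.5) and its adipocyte sum 39.7 CPM (others 0.387 to 2.75). P0 CKO replicate 4 was high for Higd1b at 38.8 CPM (others 30.2 to 30.8) and Rspo2 at 3.58 CPM (others 1.50 to 1.76).

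E16 CKO replicate 1 had a cardiac muscle sum of 514 CPM (others 99.4 to 167), a skeletal muscle sum of 38.0 CPM (others 7.18 to 9.62) and an adventitial fibroblast sum of 1184 CPM (others 788 to 836), and was low for Gpihbp1 at 9.75 CPM (others 17.2 to 18.1). E16 CKO replicate 3 was high for Hoxb6 at 7.20 CPM (others 3.29 to 3.81), Hoxb5 at 36.5 CPM (others 19.4 to 21.8) and Fam60a at 105 CPM (others 82.4 to 85.5), high in the ribosome biogenesis sum at 4251 CPM (others 3937 to 3973) and low in the mast cell sum at 157 CPM (others 183 to 188). E16 CKO replicate 4 was the only one of its group with any Slc17a2, at 0.0314 CPM. P0 control replicate 1 was low for Acta2, at 226 CPM (others 436 to 478).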

How the results depend on the processing

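Over every alternative tried, the count of genes changed between ages in CKO lungs stayed within 1.5 times of 5942. It was 5429 with no filter, 6707 by DESeq2, 5952 by limma-voom, 4143 with sex as a covariate, 8352 in a fit of 24 libraries and 4506 to 6413 when 1 library was left out. Without P0 CKO replicates 1 and 3, an alternative chosen after seeing the data, it was 5047. Library-size scaling gave 2788 higher and 3190 lower. Replicate numbers did not pair libraries (correlations -0.11, 0.14, -0.29 and 0.19, with 1 of 4 numbers matching best with itself), and a replicate block gave 4524 calls in CKO lungs, 6118 in controls and 0 for the difference. P0 CKO and P0 control libraries whose labels open with the same number had correlated deviations in 3 of 4 pairs (0.56, 0.61 and 0.66, against 0.03 in the remaining one), and E16 pairs ranged from -0.16 to 0.43. A leading-number block gave 0 calls for the difference, and both were computed after seeing the data. The control count ran from 5720 to 8778. The difference between genotypes had 0 calls in edgeR except 1, Hmox1, without P0 CKO replicate 2, so leaving out 1 library gave 0 to 1, and DESeq2 gave 17. Of those 17, 7 are named above, 2 are Y-linked and the sexes were not balanced between groups. Without both libraries high in thymus markers 0 passed.

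Of 167 named genes called in CKO lungs, 153 kept their call in every alternative. Most were named for a small p or a large change in these same libraries, which favours keeping a call. The share that kept it among all called genes was not computed. Signs turned only for changes that did not pass. Acta2 in controls was -0.0203 with library-size scaling, and from -0.0384 (without P0 control replicate 3) to 0.27 when 1 library was left out. Cbr3 in controls ran likewise from -0.021 to 0.279. In CKO lungs Slc40a1 was -0.0644 with sex as a covariate and -0.0668 without P0 CKO replicates 1 and 3. Cacnb4 was -0.374 with sex, -0.382 without P0 CKO replicates 1 and 3, and from -0.385 (without P0 CKO replicate 3) to 0.381 when 1 library was left out. The cause was not tested. Whole-lung RNA, 4 lungs a group and RNA of other tissues limit what the calls show.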
